A study of Mus musculus with 8 samples.

Results

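Sphingolipids are membrane lipids built on a sphingoid base, and this account covers 35 genes of their metabolism in mouse fat. They were taken by symbol from a fixed list, matched through GENCODE M21 (an annotation of GRCm38), and all 35 had a row among the 24821 genes of the deposited table. They fall into 12 genes of ceramide synthesis and its regulators, 4 of ceramide conversion, 6 of lysosomal breakdown, 6 of breakdown outside the lysosome, 4 of sphingosine 1-phosphate (S1P) metabolism and 3 S1P receptors. RNA came from the epididymal fat pad of male mice, with 4 samples of wild-type (WT) animals and 4 of Ccdc92 knockouts (KO), each 1 library. Both groups were on a C57BL/6 background and both had eaten high-fat chow for 14 weeks, in which fat, protein and carbohydrate gave 60%, 20% and 20% of calories. The WT animals were littermates of the same age as the KO animals. The labels do not say which part of Ccdc92 was removed, nor that each library came from its own animal, so every p-value reflects just the variation among these 8 libraries, part of which may be technical.

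Ceramide is the hub of the pathway. It is made from serine and palmitoyl-CoA in the endoplasmic reticulum, converted into sphingomyelin, glycosphingolipids or ceramide 1-phosphate, and broken down in lysosomes and other membranes to sphingosine. Sphingosine kinases turn sphingosine into S1P, a lipid signal read by G protein-coupled receptors, and S1P is either dephosphorylated or cleaved for good by a lyase. In fat, ceramides are studied for their link to insulin resistance, and macrophages take up lipid from dying adipocytes and degrade it in lysosomes.

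Ccdc92 itself, the targeted gene, ranged over normalized counts of 54.1 to 105.8 in the WT group against 4.9 to 9.7 in KO, so the libraries matched their labels. Recovered reads per library numbered 23681088 to 33817478. All 14 measured adipocyte markers rose in KO, and their summed normalized count ran from 370784 to 656927 across WT and 1215114 to 1502453 across KO. Macrophage markers fell in 11 of 12, with sums between 124804 and 260961 in WT, 47257 and 73497 in KO. Genes of the male genital tract summed to 53513 to 119645 across WT, but 10 to 1045 across KO, and 5 of the 7 tested fell. WT replicate 4 and KO replicate 3 differed from the rest of their groups in which tract genes they held, so results were also computed without both. Fibroblast markers fell in 4 of 10, with overlapping sums, and of 7 mesothelial markers 0 passed. A bulk sample cannot tell fewer cells of a type from less RNA per cell, which holds for every difference below.

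All 35 genes passed the filter on low values, and 22 passed the test (limma on log2 of the normalized count + 1, adjusted over all 17798 genes tested, called at an adjusted p under 0.05). That is 62.9%, where 41.7% of all genes tested passed. In KO fat 15 of the 35 fell (42.9%, against 21.5% of all genes) and 7 rose (20%, against 20.2% of all genes). The share that rose was thus near the background, and the share that fell was above it. The list was chosen with earlier results of these data known, so these shares describe it and are no independent test. The median log2 fold change was -0.31 over the 35 genes and -0.01 over all genes tested. In 24 of the 35 (68.6%, against 42.1% of all genes) the values of the groups did not overlap, 17 of them with KO below WT. The falls lay in S1P metabolism (4 of 4), lysosomal breakdown (5 of 6), ceramide synthesis (3 of 12) and single members of the other groups. In ceramide synthesis 25% fell and 16.7% rose, both near the shares of all genes (21.5% and 20.2%). Quantile normalization moved the median of all genes by 0.105 and the split of called genes from 3592 higher and 3831 lower to 4593 and 3257, but the 35 genes still gave 7 and 15. Without WT replicate 4 and KO replicate 3 the counts were 4 and 14.

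**Figure D1:**
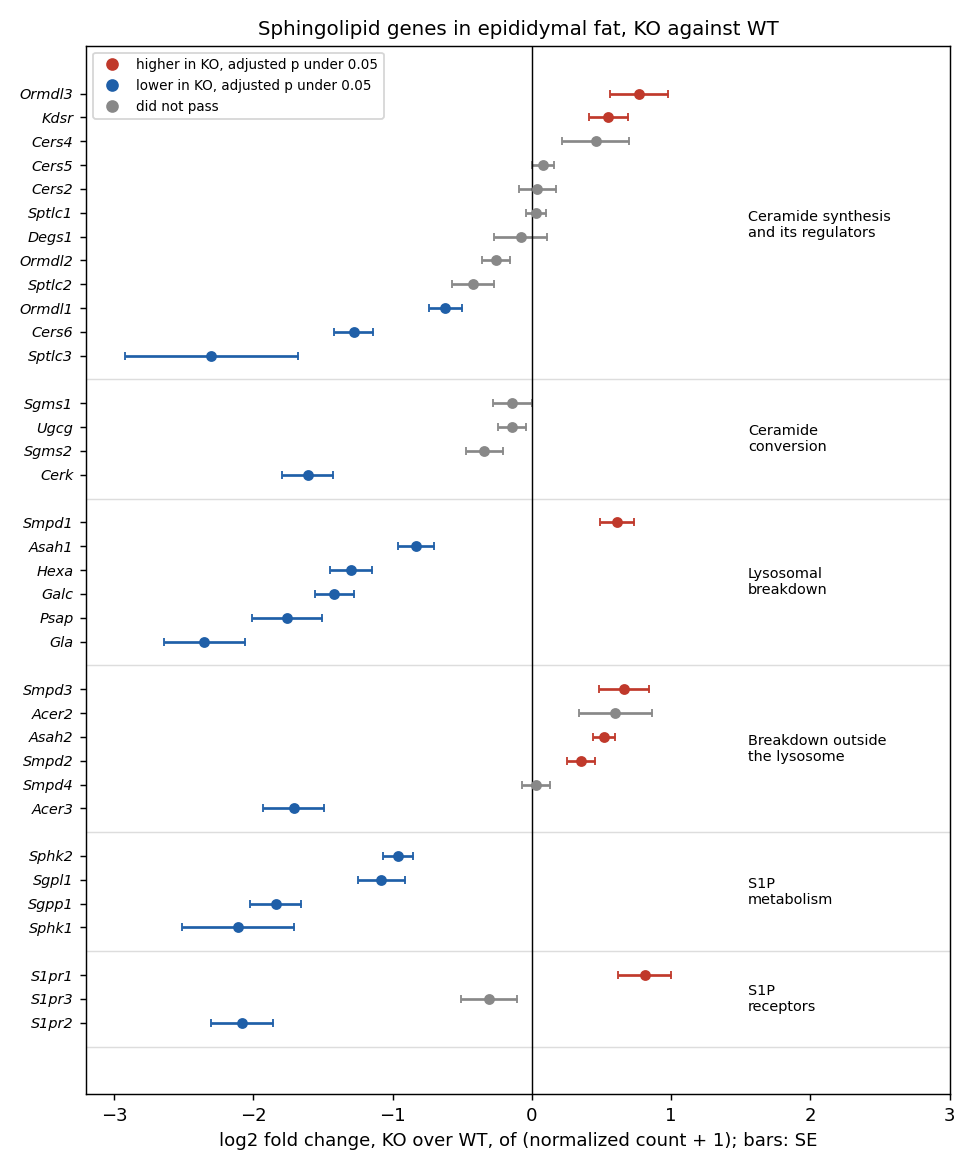
Log2 fold change of each of the 35 genes, KO over WT, with its standard error (bars), grouped by role; red genes were called higher and blue genes lower by limma (adjusted p under 0.05), and grey genes did not pass. All 4 genes of S1P metabolism and 5 of the 6 lysosomal genes lie left of 0, whereas ceramide synthesis spans -2.30 (Sptlc3) to 0.77 (Ormdl3).

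Promoter windows of RefSeq (GRCm38.p6, 250 bases before to 50 after an annotated start) were matched by symbol for 32 of the 35 genes, in 48 windows, all but Asah1, Smpd3 and S1pr1. They were searched for CACGTG, the E-box read by TFEB, TFE3 and MITF among other factors, and for TCACGTGA, the core of the CLEAR element of lysosomal genes. Each motif is its own reverse complement, so 1 search covers both strands, and every TCACGTGA also holds a CACGTG. The shorter motif was found in 8 of the 48 windows (16.7%), which belong to 7 genes, and in 7.15% of all 32851 windows of that length. A pair of the 8 are overlapping Sphk1 windows around 1 site, and windows of a gene are not independent. TCACGTGA was found in 1 of the 48 windows (2.08%) and 0.974% of all windows. The gene with TCACGTGA was Gla, which holds it at bases 23 to 30 and 56 to 63, counted from 1 at the 5′ end. A match is a description of these letters and not a shown binding site. The windows below are those of Gla, the lysosomal gene with the lowest fold change, of Smpd1, the lysosomal gene that rose, and of the ceramide synthases Cers6, which fell, and Cers2, which did not pass. Capitals mark the motifs, and Smpd1 has none. Psap, Galc and Hexa, lysosomal genes that fell, have none in their windows either. By role, CACGTG was found in 1 of the 5 lysosomal genes with a window and in 3 of 12 genes of ceramide synthesis. Another Cers2 window, chr3:95318580-95318879, holds no CACGTG and is not printed.
Gla, chrX:134600956-134601255, minus strand: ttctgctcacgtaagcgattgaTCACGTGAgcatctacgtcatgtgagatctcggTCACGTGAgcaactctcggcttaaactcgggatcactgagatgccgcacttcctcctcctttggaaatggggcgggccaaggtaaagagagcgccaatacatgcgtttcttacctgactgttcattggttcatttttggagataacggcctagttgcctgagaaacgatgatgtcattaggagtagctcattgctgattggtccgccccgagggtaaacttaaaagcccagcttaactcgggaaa
Smpd1, chr7:105554110-105554409, plus strand: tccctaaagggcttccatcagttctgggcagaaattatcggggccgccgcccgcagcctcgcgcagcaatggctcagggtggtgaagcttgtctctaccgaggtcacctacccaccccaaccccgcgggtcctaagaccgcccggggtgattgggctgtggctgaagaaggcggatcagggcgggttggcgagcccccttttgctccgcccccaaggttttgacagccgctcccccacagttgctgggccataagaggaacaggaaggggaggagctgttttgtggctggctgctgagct
Cers6, chr2:68861191-68861490, plus strand: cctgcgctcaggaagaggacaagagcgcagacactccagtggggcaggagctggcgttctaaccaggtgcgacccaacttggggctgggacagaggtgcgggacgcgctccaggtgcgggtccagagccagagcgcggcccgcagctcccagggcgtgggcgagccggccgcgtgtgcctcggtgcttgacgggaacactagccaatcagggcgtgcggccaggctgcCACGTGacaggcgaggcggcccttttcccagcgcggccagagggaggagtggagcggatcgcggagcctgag
Cers2, chr3:95314940-95315239, plus strand: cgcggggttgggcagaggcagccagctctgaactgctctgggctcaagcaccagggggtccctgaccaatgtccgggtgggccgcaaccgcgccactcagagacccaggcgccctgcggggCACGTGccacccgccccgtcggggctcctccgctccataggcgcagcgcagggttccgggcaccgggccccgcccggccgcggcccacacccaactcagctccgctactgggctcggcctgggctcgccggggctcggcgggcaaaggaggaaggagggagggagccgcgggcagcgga

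The rate-limiting enzyme of the pathway, serine palmitoyltransferase, joins serine to palmitoyl-CoA and is a complex of Sptlc1 with Sptlc2 or Sptlc3. Its shared subunit Sptlc1 spanned 1246.7 to 1300.2 in WT, 1252.5 to 1418.9 in KO, and did not pass (log2 fold change 0.03, SE 0.07, limma adjusted p = 0.729). Sptlc2, the main catalytic subunit, had 3119.8, 1932, 2357 and 1980.3 in WT replicates 1 to 4 and 1820.2, 1813.3, 1653.2 and 1628.7 in KO replicates 1 to 4. All KO values lay below all WT values, but the gene missed the threshold (-0.42, SE 0.15, limma adjusted p = 0.0514). It passed in edgeR (adjusted p = 0.046) and DESeq2 (adjusted p = 0.022). In limma it passed without WT replicate 2 (adjusted p = 0.0324) or WT replicate 4 (0.0384), with library weights (0.0141) and with the filter raised to 50 (0.047). Sptlc3, the alternative catalytic subunit, had 60.5, 113.5, 45.5 and 83.3 in WT and 35.6, 22.2, 10.7 and 3.6 in KO. It fell by 2.30 on the log2 scale (SE 0.62, limma adjusted p = 0.0175), the groups did not overlap, and KO replicate 4 was lowest with 3 reads. Its call was lost without WT replicate 4 and KO replicate 3 (limma adjusted p = 0.0845) and with library weights (-1.31, limma adjusted p = 0.0561). Per kilobase of exon, Sptlc3 was a small part of the catalytic subunits, at 8.88% ± 4.47 of the summed level in WT and 2.78% ± 2.01 in KO (SD, n = 4).

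Kdsr, the reductase of the second step, rose. It had 895.3, 1293.5, 1062.9 and 944.7 in WT and 1368.6, 1336.5, 1716.6 and 1705.1 in KO. The groups did not overlap (0.55, SE 0.14, limma adjusted p = 0.0134), but the call was lost once WT replicate 4 and KO replicate 3 were left out (0.45, limma adjusted p = 0.0781). Degs1, the desaturase that completes ceramide, did not pass (-0.08, SE 0.19), with 4052.4 to 4791.2 in WT and a wider 3013.7 to 5583.6 in KO.

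Ceramide synthases attach the fatty acid, and each prefers certain chain lengths. Cers6 (ENSMUSG00000027035.10, chromosome 2, 68861441 to 69114282, plus strand), which uses palmitoyl-CoA, was the synthase that fell among the 4 that are members. Its normalized counts were 2033.7, 1599.3, 1961.5 and 1376.4 in WT and 663, 801.6, 653.5 and 716.7 in KO. Every KO library held less than any WT library, and the gene fell by 1.28 on the log2 scale (SE 0.14, limma adjusted p = 0.000475). The other 3 member synthases did not pass. Cers2, which makes very-long-chain ceramides, had a log2 fold change of 0.04 (SE 0.13), Cers5, which also uses palmitoyl-CoA, one of 0.08 (SE 0.08), and Cers4, which makes long-chain ceramides, one of 0.46 (SE 0.24, limma adjusted p = 0.151). Cers4 also varied most among WT libraries, from 1099.9 to 2462.8, and it passed without WT replicate 2 (0.65, limma adjusted p = 0.0413). Per kilobase, Cers6 made up 9.68% ± 0.712 of these 4 synthases in WT and 4.01% ± 0.456 in KO (SD, n = 4), while Cers2 held the largest share in every library, 59.4% to 70.3%. Of the synthases in the wider list described below, Cers1 did not pass, and Cers3, named here after its values were seen, fell at a very low level. Cers3, known from skin for ultra-long-chain ceramides, had 13.8, 29.8, 26.9 and 30 in WT and 2.3, 12, 4.3 and 0 in KO, where it rested on 2, 14, 4 and 0 reads (-2.69, SE 0.72, limma adjusted p = 0.0175). Its call was lost at a pseudocount of 0.1 (limma adjusted p = 0.0538) and without WT replicate 4 and KO replicate 3 together (0.0628).

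The ORMDL proteins restrain serine palmitoyltransferase, and the 3 genes did not move alike. Ormdl3 (ENSMUSG00000038150.7, chromosome 11, 98581256 to 98587368, minus strand) had 3695, 7792.4, 5180.8 and 6065.5 in WT and 7966.9, 9774.3, 9596.7 and 10127.7 in KO. It rose by 0.77 (SE 0.21, limma adjusted p = 0.0194), with WT replicate 2 just under the lowest KO library, and the call was lost without WT replicate 3 (0.74, limma adjusted p = 0.0523) and without WT replicate 4 and KO replicate 3 (0.80, limma adjusted p = 0.0631). Ormdl1 fell, from 304.6, 241.4, 317.5 and 265 in WT to 196.5, 183.7, 186 and 166.1 in KO (-0.62, SE 0.12, limma adjusted p = 0.00463), with no overlap. Ormdl2 lay between 346.4 and 439.1 in WT, between 306.8 and 337.5 in KO, and missed the threshold (-0.26, SE 0.10, limma adjusted p = 0.0597). It passed without WT replicate 4 (limma adjusted p = 0.0377), with library weights (limma adjusted p = 0.00915) and in DESeq2 (adjusted p = 0.044). Its exons overlap those of Dnajc14 on the opposite strand over 1114 bp, 66.7% of its exonic length, and the strand setting of the counting is unknown, so the Ormdl2 values are uncertain. Dnajc14 had a log2 fold change of 0.01 (SE 0.06). Ormdl3 was the most abundant of the 3 per kilobase, at 89.3% ± 3.2 of their summed level in WT and 94.8% ± 0.751 in KO (SD, n = 4).

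A wider list of other sphingolipid genes had 36 tested, of which 16 fell (44.4%, against 21.5% of all genes) and 3 rose (8.33%, against 20.2%). The counts by role below are read against the same shares. The wider list too was chosen with earlier results of these data known. Of its genes of ceramide synthesis, 5 of the 6 tested fell. Rtn4, an endoplasmic reticulum protein that can restrain serine palmitoyltransferase, fell from 19190 to 9970 in mean normalized count (-0.94, SE 0.12, limma adjusted p = 0.00085). The adipocyte markers given above rose in 14 of 14 measured while Ormdl3 and Kdsr rose and Cers6 fell, and their part in these results was not tested.

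**Figure D2:**
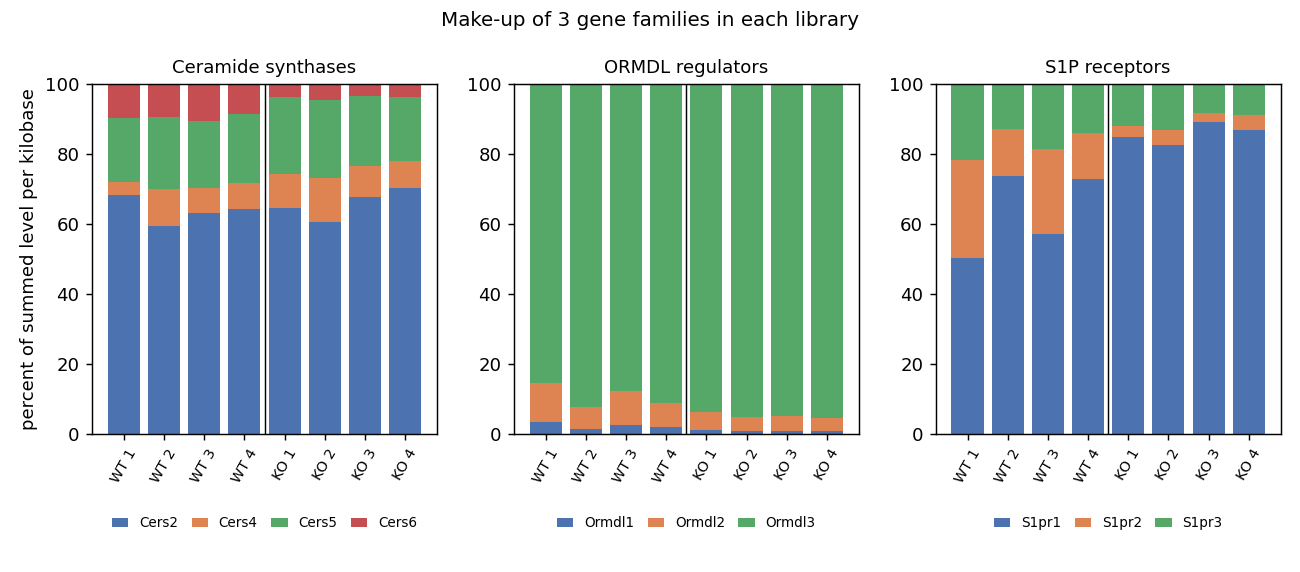
Stacked bars give, for each library, the percent of the summed level per kilobase of exon held by each member of the ceramide synthases (left), the ORMDL regulators (middle) and the S1P receptors (right); WT replicates stand left of the line and KO replicates right. Cers6 and S1pr2 take a smaller share in all KO libraries than in any WT library, and S1pr1 takes 82.4% to 89.1% in KO against 50.1% to 73.5% in WT.

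Of the genes that convert ceramide, 1 of 4 passed. Cerk, the kinase that makes ceramide 1-phosphate, had 5661.7, 3429.3, 4421.5 and 3773.4 in WT and 1225, 1825.3, 1343.6 and 1249.1 in KO. The lowest WT value was above the highest KO value, and Cerk fell by 1.61 (SE 0.18, limma adjusted p = 0.000608), a 3.06-fold lower mean. The sphingomyelin synthases Sgms1 of the Golgi (-0.14, SE 0.14) and Sgms2 of the plasma membrane (-0.34, SE 0.13, limma adjusted p = 0.0647) did not pass. Sgms2 did pass without WT replicate 1 (limma adjusted p = 0.0152), with library weights (limma adjusted p = 0.0102) and in DESeq2 (adjusted p = 0.0482). Ugcg, which makes glucosylceramide, did not pass either (-0.14, SE 0.10), with 659.2 to 821 in WT and 587 to 717.8 in KO. In the wider list, 6 of the 10 other conversion genes tested fell. Among them were B4galnt1 (-2.15, SE 0.25, limma adjusted p = 0.000643), which builds complex gangliosides, and B4galt6 (-1.58, SE 0.20, limma adjusted p = 0.000834), which turns glucosylceramide into lactosylceramide.

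Among the 6 genes of lysosomal breakdown 5 fell and 1 rose, and the median log2 fold change was -1.36. The 5 that fell were Gla, Psap, Galc, Hexa and Asah1, and in each of them every KO library was below every WT library. Smpd1 went the other way with equally separate groups. Lysosomes remove sugars from glycosphingolipids one at a time, with saposins lifting the lipid toward the enzyme, until acid ceramidase splits ceramide.

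Psap (ENSMUSG00000004207.14, chromosome 10, 60277627 to 60302597, plus strand) encodes prosaposin, the precursor of the 4 saposins. Its normalized counts were 340626.6, 158079.8, 246293.4 and 182257.6 in WT and 64061.4, 79670.1, 60630.6 and 59469.6 in KO. It took 1.24%, 0.592%, 0.92% and 0.682% of all reads in WT replicates 1 to 4 and 0.167% to 0.276% in KO. Among 17791 genes ranked by level per kilobase, Psap stood 4th to 16th in the WT libraries and 46th to 57th in the KO libraries. The fall was -1.76 (SE 0.25, limma adjusted p = 0.00115).

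Gla (ENSMUSG00000031266.6, chromosome X, 134588149 to 134601125, minus strand), whose promoter window carries the 2 printed TCACGTGA motifs, encodes alpha-galactosidase A, the enzyme lacking in Fabry disease. It had 3259.2, 1346.3, 2241.8 and 1414.8 in WT and 350.5, 508.5, 371.9 and 310.5 in KO. Every KO library lay below every WT library (-2.35, SE 0.29, limma adjusted p = 0.000756). Galc, which removes galactose from galactosylceramide and is lacking in Krabbe disease, had 2987.7, 2321.5, 2592.7 and 2111.4 in WT and 914.7, 1134.8, 857.8 and 824.7 in KO. Its WT libraries were closer together than those of Gla, and it fell by 1.42 (SE 0.14, limma adjusted p = 0.000379).

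Hexa, a lysosomal enzyme subunit for ganglioside breakdown that is lacking in Tay-Sachs disease, had 14305.6, 9448.4, 12638.8 and 10289.2 in WT and 5024, 5349.5, 4473.7 and 3964.5 in KO (-1.30, SE 0.15, limma adjusted p = 0.000652). Asah1, acid ceramidase, had 6109.4, 3987.1, 5310.8 and 4404.5 in WT and a narrow 2814.2, 2847.3, 2748.5 and 2555.3 in KO. It fell least of the 5 (-0.83, SE 0.13, limma adjusted p = 0.00183).

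Smpd1 encodes acid sphingomyelinase, which turns sphingomyelin into ceramide and is lacking in Niemann-Pick disease types A and B. Its values were 1662.2, 2144.5, 1826.9 and 2309.9 in WT and 3147.5, 3222.5, 3022.6 and 2663.2 in KO. All KO libraries lay above all WT libraries, and it rose by 0.61 (SE 0.12, limma adjusted p = 0.00426). It still passed without WT replicate 4 and KO replicate 3 (0.68, limma adjusted p = 0.0107).

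Beyond the members, 5 of 8 other lysosomal genes of sphingolipid breakdown fell and none rose. Glb1, the beta-galactosidase that acts on gangliosides, fell by 1.02 (SE 0.11, limma adjusted p = 0.000497). Macrophage markers moved with the lysosomal falls, as given above. Of the markers of lipid-associated macrophages 10 of 11 fell and Lpl, which adipocytes express too, rose. The sums of that list overlapped between groups, at 289037 to 593669 across WT, 249508 to 317802 across KO, and without Lpl they were 138631 to 438157 and 13791 to 33925. No marker of either list was at 0 in all libraries. Within the WT group alone, Psap, Gla, Hexa and Asah1 ranked the libraries as the summed macrophage markers did, with replicate 1 highest, then 3, 4 and 2. Of the 35 genes 8 had that order (22.9%), as did 10.5% of all genes tested, a pattern looked for after the values were seen. The rest of the 8 were Sptlc2, Cers2, Cerk and S1pr3, which are not lysosomal. The lysosomal members Galc and Smpd1 did not have it. Within the KO group no lysosomal member had the order of the summed macrophage markers, which 2 of the 35 genes (5.71%) and 6.07% of all genes shared. The part of macrophages in the lysosomal result was not tested.

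**Figure D3:**
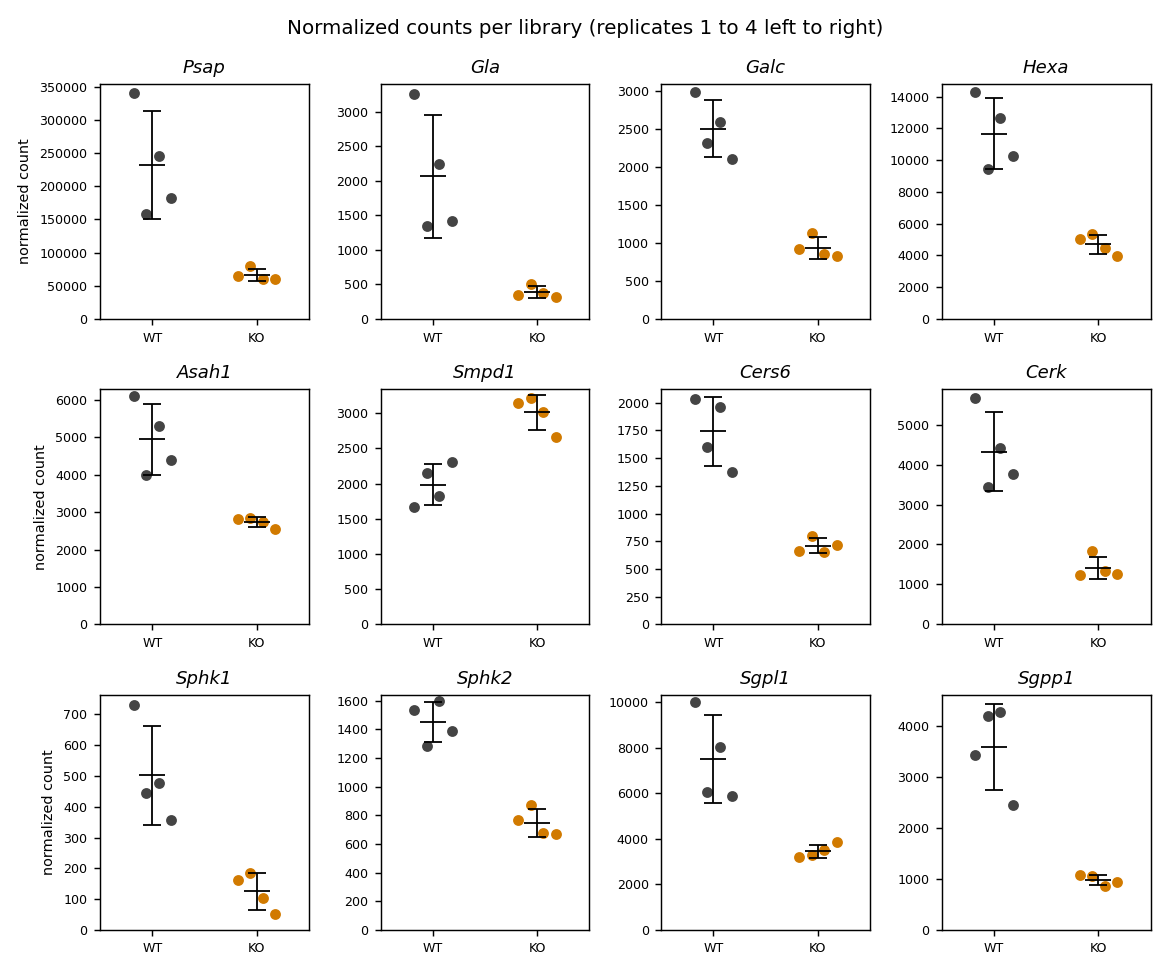
Normalized count of 12 genes in each library (points, replicates 1 to 4 from left to right) with the mean and SD of each group (n = 4), on linear axes that start at 0. In all 12 the groups are separate, and Smpd1 is the gene among them that is higher in KO, at 2663.2 to 3222.5 against 1662.2 to 2309.9. The 12 had all passed the test without overlap, so their separation follows from the choice of genes. Groups did not overlap in 68.6% of the 35 members and 42.1% of all genes tested.

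Outside the lysosome, 3 of 6 breakdown genes rose, 1 fell and 2 did not pass. Asah2, neutral ceramidase, had 770.5, 963.6, 888.4 and 922.3 in WT and 1256, 1214.3, 1258.7 and 1337.7 in KO (0.52, SE 0.08, limma adjusted p = 0.00201). Neutral ceramidase thus rose where acid ceramidase, Asah1, fell. Acer3, an alkaline ceramidase, fell with 1361.3, 829, 1084.3 and 1290.2 in WT and 397.6, 463.2, 282.7 and 259.5 in KO (-1.71, SE 0.22, limma adjusted p = 0.0009). Acer2, the alkaline ceramidase of the Golgi, did not pass (0.60, SE 0.26, limma adjusted p = 0.0916). Its WT libraries were split, at 762.3 and 644.2 in replicates 1 and 3 and at 1311.7 and 1388.6 in replicates 2 and 4, beside 1209.2 to 1683.3 in KO. Acer2 passed without WT replicate 4 (0.77, limma adjusted p = 0.037) and with library weights (0.9, limma adjusted p = 0.015).

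Neutral sphingomyelinases release ceramide at other membranes. Smpd3, the form known from bone and brain, had 491.7, 710.7, 704.6 and 931.6 in WT and 1072.1, 1010.1, 1066.3 and 1239.4 in KO (0.66, SE 0.18, limma adjusted p = 0.0174), with no overlap. Smpd2 had 515.5, 671.2, 606.2 and 634.8 in WT and 774.5, 866.5, 732 and 719.2 in KO (0.35, SE 0.10, limma adjusted p = 0.025). Its rise missed the threshold without WT replicate 3 (limma adjusted p = 0.0601), KO replicate 1 (0.0568) or KO replicate 2 (0.0599), and without WT replicate 4 and KO replicate 3 together (0.0548). Smpd2 shares 905 bp of exon, 20.3% of its exonic length, with Mical1 on the opposite strand, and Mical1 fell (-1.14, SE 0.19, limma adjusted p = 0.0026). Smpd4 did not pass (0.03, SE 0.10). Gba2, a glucosylceramidase outside the lysosome from the wider list, rose by 0.41 (SE 0.12, limma adjusted p = 0.021) and missed the threshold without WT replicate 3 (0.0549) and without WT replicate 4 and KO replicate 3 together (0.0584).

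All 4 genes of S1P metabolism fell, with a median of -1.46, on the making and on the removing side of S1P. Sphk1, the inducible cytosolic kinase, had 730.2, 444.3, 478.1 and 356.7 in WT and 160.9, 184.6, 103.2 and 50.9 in KO (-2.11, SE 0.40, limma adjusted p = 0.00417). Sphk2, the kinase found also in nucleus and mitochondria, had 1534.7, 1280.9, 1593.9 and 1390.4 in WT and 768.8, 870.8, 674 and 667 in KO (-0.96, SE 0.11, limma adjusted p = 0.00061). Sphk1 was the minor form per kilobase, at 22.9% ± 4.74 of both in WT and 12.3% ± 4.38 in KO (SD, n = 4). Exons of Sphk2 overlap Dbp, a clock output gene that rose (1.01, SE 0.26, limma adjusted p = 0.016), and Rpl18, which fell (-0.34, SE 0.09, limma adjusted p = 0.0179), on the opposite strand over 13% and 8.97% of its exonic length. Mean normalized counts were 2785.8 for Dbp and 7447.6 for Rpl18 against 1097.6 for Sphk2. With the strand setting unknown, the Sphk2 values and its share are uncertain too.

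Sgpp1 (ENSMUSG00000021054.6, chromosome 12, 75714249 to 75735729, minus strand), the phosphatase that returns S1P to sphingosine, had 3440.9, 4203.5, 4275.7 and 2455 in WT and 1071, 1057.1, 867.4 and 947.2 in KO. It fell by 1.84 (SE 0.18, limma adjusted p = 0.000379), and WT replicate 4, the lowest WT library, was still above every KO library. Sgpl1, the lyase that ends S1P and with it the sphingoid base, had 9995.1, 6056.6, 8030.7 and 5892.3 in WT and 3191.1, 3293.4, 3506.3 and 3844.4 in KO (-1.08, SE 0.17, limma adjusted p = 0.00182). Of 8 other S1P genes tested, 2 rose (25%, near the 20.2% of all genes) and none fell. They were Plpp3, a lipid phosphatase of the cell surface (0.46, SE 0.12, limma adjusted p = 0.0153), and Spns2, the S1P exporter of endothelium (0.68, SE 0.21, limma adjusted p = 0.032). The call of Spns2 was lost when WT replicate 1 (limma adjusted p = 0.0739), 2 (0.0626) or 3 (0.0797), or KO replicate 1 (0.077), 2 (0.0752) or 4 (0.0688), was left out.

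The S1P receptors went in different directions. S1pr1 (ENSMUSG00000045092.8, chromosome 3, 115710433 to 115715072, minus strand), the Gi-coupled receptor of endothelium and lymphocytes, had 1713.6, 2852.3, 1706.2 and 2818.3 in WT and 4100.1, 3689.9, 4263 and 3479.4 in KO. The groups did not overlap, and it rose by 0.81 (SE 0.19, limma adjusted p = 0.0108). S1pr2 (ENSMUSG00000043895.6, chromosome 9, 20962361 to 20976781, minus strand), which couples to several G proteins, had 2505.2, 1376.2, 1890.9 and 1329.6 in WT and 383.8, 505.9, 323.5 and 428.1 in KO. It fell by 2.08 (SE 0.22, limma adjusted p = 0.000497), to a mean 4.33-fold lower. S1pr3 had 734.7 to 1100.8 in WT and 526.3 to 868.2 in KO, which overlap, and did not pass (-0.31, SE 0.20, limma adjusted p = 0.231).

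Per kilobase, S1pr1 held 63.3% ± 11.6 of the 3 receptors in WT and 85.9% ± 2.85 in KO, and S1pr2 held 19.7% ± 7.52 and 3.51% ± 0.83 (SD, n = 4). In WT the shares of S1pr2 and S1pr3 (17% ± 4.17) lay within their spread, and in KO S1pr3 (10.6% ± 2.38) stood above S1pr2. Endothelial markers rose in 8 of 12 and fell in none, with sums of 22319 to 42027 across WT, 50459 to 57213 across KO, and no marker was at 0 in all libraries. Mural cell markers rose in 2 of 10 and fell in 1, with overlapping sums of 18486 to 66019 (WT, replicate 4 highest) and 26546 to 38740. Lymphocyte markers fell in 5 of 12, with sums of 3074 to 6895 and 866 to 2521. Groups were separate for just 1 of these 12, Il7r, and overlapped for the other markers. Il7r was the largest lymphocyte marker in every WT library, at 1808.9 or more, while no KO library held above 455.5. The gap between the sums thus leans on Il7r and does not describe the list as a whole. The part of these cells in the receptor values was not tested.

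Whether related genes responded differently was tested on the log2 ratio of 2 genes within a library, which does not depend on the scaling between libraries. Each of 10 pairs got an exact permutation test (two-sided, all 70 splits of 4 against 4), adjusted over the pairs. Of them 7 passed, each at the smallest p that 4 against 4 can give (exact permutation p = 0.0286, adjusted p = 0.0408). For any pair to pass after adjustment, 6 of the 10 must reach that smallest p, so each pass depends on the others. The ratio of S1pr1 to S1pr2 was -0.55, 1.05, -0.15 and 1.08 in WT and 3.41, 2.86, 3.72 and 3.02 in KO, a difference of 2.89. That of Acer2 to Acer3 differed by 2.31, S1pr3 to S1pr2 by 1.77, Ormdl3 to Ormdl1 by 1.38 and Ormdl2 to Ormdl1 by 0.35. In these 5 pairs the first gene was relatively higher in KO. For S1pr1 to S1pr2 and Ormdl3 to Ormdl1 the ratio adds no separate evidence, since each pair's genes were already separated in opposite directions, which leaves no room for overlap. Both ratios still count toward the 6 that any pass needs. S1pr2 and Ormdl1 each serve in a pair of ratios, and the ratio of Ormdl2 to Ormdl1 carries the uncertainty of Ormdl2 given above, whose overlapping gene Dnajc14 had a mean of 2591.5 against 356.3 for Ormdl2. The ratio of Cers6 to Cers2 was -1.45 ± 0.13 in WT and -2.77 ± 0.25 in KO (SD, n = 4), a difference of -1.32. That of Sphk1 to Sphk2 differed by -1.14 and carries the uncertainty of Sphk2 given above. Groups overlapped for Cers4 to Cers5 (0.38, exact permutation p = 0.2857), Sgms2 to Sgms1 (-0.20, exact permutation p = 0.4857) and Sptlc3 to Sptlc2 (-1.89, exact permutation p = 0.0857), which did not pass. Without WT replicate 1 or KO replicate 1, 6 pairs passed. Without KO replicate 2, 3 or 4, 0 of 10 pairs passed after adjustment over 35 splits, although all 10 kept their sign under these and the other omissions.

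**Figure D4:**
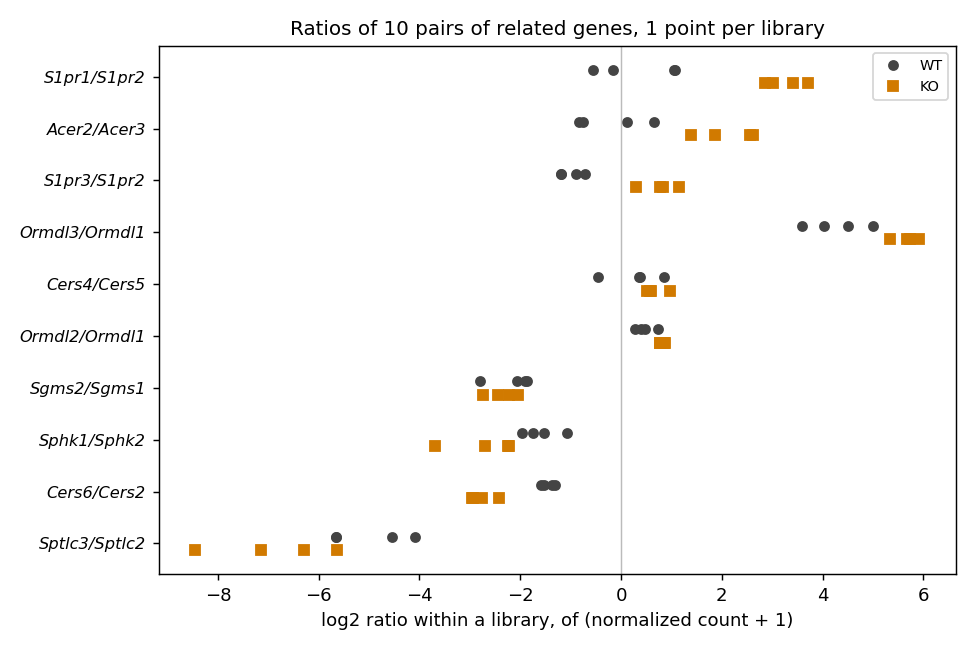
Log2 ratio of 2 related genes within each library, for 10 pairs ordered by the difference between groups; circles are WT libraries and squares KO libraries. The S1pr1/S1pr2 ratio lies between -0.55 and 1.08 in WT, between 2.86 and 3.72 in KO, whereas the points of Sgms2/Sgms1 overlap.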

How the data were processed

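Libraries were made from total RNA with a TruSeq RNA kit, per the labels' protocols. The authors deposited 1 table of normalized counts per gene (a signal unit), and the submitters' processing notes name STAR 2.7.7, DESeq2 and GRCm38.p6 without their roles. Not given in the sources used here are the counter, its strand setting and the annotation. Within a library 100% of values were whole multiples of 1 step (tolerance 0.01 of a read), which gave whole reads. Identifiers matched GENCODE M21 with their version for 24558 genes and without it for 24802. Libraries within a group differed beyond sampling noise (chi-square per degree of freedom 24.7 to 410.2).

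The test was limma (3.58.1, R 4.3.3) fitted to log2(normalized count + 1), with group alone, trend and robust moderation, over genes with at least 10 in at least 4 libraries. Fold changes are on that scale, which understates low genes. edgeR 4.0.16 and DESeq2 1.42.0 on recovered reads, other pseudocounts, filters, scalings, weights, a replicate block and omitted libraries were alternatives (20 in all). The fit was tested on simulated counts, where it missed many small changes and some larger ones. Far fewer genes were changed there than were called here, so its rate of misses does not carry over to these data. A gene that did not pass is not shown to be unchanged. Levels per kilobase used the union of annotated exons. With the longest transcript of each gene instead, 12 of the family shares per group moved by their SD or more. Cers6 then made up 8.03% of the 4 synthases in WT and 3.31% in KO. Cers2 moved from 63.7% to 69.5% in WT. The members and lists were chosen with earlier results of these data known. All 35 members are named, and from the wider list up to 5 called genes per direction with the smallest p, 1 of which is not reported here.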

Additional observations from a re-analysis of the deposited data

Results flagged for a closer look

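In 2 of 70 groups of 4 libraries, 1 library stood apart from the other 3 by Dixon's test at 95%, where chance gives about 1 in 20. Both were highest in WT replicate 1. Sgms1, a sphingomyelin synthase, was 2676.7 there and 1932 to 2046.8 in the other WT libraries. Ugcg, glucosylceramide synthase, was 821 there and 659.2 to 677 in the others. Neither gene had passed the comparison of KO with WT.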

How the results depend on the processing

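The counts of members called, 7 higher and 15 lower, were within 1.5 times in all alternatives but 1: without WT replicate 4 and KO replicate 3 together 4 were higher. With 1 library left out, the ranges were 5 to 8 higher and 15 to 17 lower. In the wider list the 3 called higher ranged from 1 to 3 with 1 library left out, 1 being without WT replicate 3. Of the 10 paralog pairs 0 to 7 passed with 1 library left out, 0 without KO replicate 2, 3 or 4. With 35 splits, as with 70, 6 pairs at the smallest p (0.0286) are needed for any to pass after adjustment. With 2 libraries left out the smallest p is 0.1.

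Signs changed in genes near 0 that never passed. With 1 library left out the log2 fold changes ran from -0.01 to 0.05 for Sptlc1, -0.03 to 0.14 for Cers2, -0.21 to 0.09 for Degs1 and -0.02 to 0.10 for Smpd4. Sptlc1 was -0.01 without KO replicate 3, and -0.01 without WT replicate 4 and KO replicate 3 together. Cers2 was -0.05 with library weights and without both libraries, and -0.03 to -0.02 without WT replicate 2, WT replicate 4 or KO replicate 4. Degs1 was 0.04 with library weights and 0.09 without KO replicate 4. Smpd4 was -0.02 to -0.01 without WT replicate 4, KO replicate 1 or KO replicate 2. The cause was not tested.

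The shared replicate numbers did not pair the libraries: deviations from group means correlated at -0.143, 0.051, -0.041 and 0.172 for numbers 1 to 4. The replicate block left 7 members higher and 15 lower, with 6266 genes called in place of 7423. Among the 35 members depth limits Sptlc3 most, at 3 to 31 reads in KO.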

Other observations

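A few genes of the wider list were high in 1 library, and they are named here after their values were seen. Sptssb, a small subunit of serine palmitoyltransferase, reached 137.6 in WT replicate 4, with 0 to 1.9 in the other 7 libraries. WT replicate 4 was also the library with 80635.9 of the tract gene Akr1b7, which was at most 211.6 in the others. Apom, the carrier of S1P in plasma, was 53.8 in WT replicate 3 and 2.8 to 6.8 elsewhere.

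The order of the KO libraries was shared by many members. From high to low it was KO replicate 2, 1, 3 and 4 in 13 of 35 members (37.1%), among them Psap, Hexa, Galc, Asah1, Sphk1 and Sphk2, and in 10.6% of all genes tested. The summed endothelial markers had the same order over their narrow range of 50459 to 57213, and the summed macrophage markers did not. Among single macrophage markers, Cd68, Itgam and Fcgr1 had this order too, and the rest of that list did not. This order was looked for after the values were seen and was not tested.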
